A study of Homo sapiens with 12 samples.

Results

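The 10 genes described here, POLRMT, TFAM, TFB1M, TFB2M, TEFM, TWNK, PNPT1, SUPV3L1, LRPPRC and SLIRP, encode proteins that unwind and transcribe mitochondrial DNA or that modify, stabilise or break down its RNA. They were chosen by symbol and not by a rule on their values, although earlier results of these data were known. They are 10 of the 60609 genes annotated in the deposited files. All 10 reached the level needed for testing, at least 1 TPM in 2 or more libraries, which 17185 genes did. TPM, the number of transcripts scaled to the same total in each library, is a level per transcript length. Genes within a library can be compared by it only roughly, since any bias that differs between genes stays in it.

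RNA came from NS-SV-AC, an established human cell line made from salivary gland acinar cells. By its title the study addresses Sjögren's syndrome and RNA duplexes made in mitochondria, and 12 libraries formed 6 groups of 2 replicates. Cells of 3 kinds of treatment (DMSO, 2-CM and RES) received by transfection either poly I:C, which mimics double-stranded viral RNA, or a control that the labels name depc. DMSO is the solvent control. 2-CM is 2'-C-methyladenosine, an adenosine analogue known to stop RNA synthesis by viral and mitochondrial RNA polymerases, and RES is the plant polyphenol resveratrol. Compounds were added 24 h ahead of the transfection and once more during it. Their labelled dose was 20 μm, taken to mean micromolar. Exposure to poly I:C lasted 14 h and growth 48 h. The labels do not say that replicates came from separate cultures, so p-values measure only the spread between these samples, which may be technical. Because the RNA is from bulk cultures, fewer cells of a type and less RNA per cell cannot be told apart.

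Mitochondrial DNA is a small circle transcribed from both strands into long precursors, so complementary RNAs are made that can pair into double-stranded RNA. POLRMT is the single-subunit RNA polymerase that makes them; TFAM bends and packs the DNA at the promoters, TFB2M opens the promoter, and TEFM keeps the polymerase elongating. PNPT1, an exoribonuclease, and SUPV3L1, a helicase, act together to degrade mitochondrial RNA and are known to limit its double-stranded form, while LRPPRC and SLIRP bind and stabilise mitochondrial mRNAs.

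The promoters of 3 genes are shown because their genes carry the contrasts below: PNPT1 had the largest rise with poly I:C, POLRMT fell, and TFB1M, which holds the same 10-base motif as POLRMT, was called higher under 2-CM without a correction for GC content but not with it. Each is the 250 bases before the RefSeq start on GRCh38.p14, 5′ to 3′ on the gene's strand, at chr2:55693845-55694094 (minus strand) for PNPT1, chr19:633538-633787 (minus) for POLRMT and chr6:155314485-155314734 (minus) for TFB1M. Capitals mark the matches of 3 motifs: in PNPT1 the gamma-activated sequence core (TTCNNNGAA) and a pair of GAAA blocks 1 base apart (GAAANGAAA), and in POLRMT and TFB1M the core bound by the nuclear factor NRF1 (GCGCATGCGC).
PNPT1: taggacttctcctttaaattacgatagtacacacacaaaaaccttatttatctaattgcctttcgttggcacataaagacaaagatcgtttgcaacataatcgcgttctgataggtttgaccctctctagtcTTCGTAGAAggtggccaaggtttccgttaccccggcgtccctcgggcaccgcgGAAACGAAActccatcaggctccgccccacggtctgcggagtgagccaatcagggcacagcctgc
POLRMT: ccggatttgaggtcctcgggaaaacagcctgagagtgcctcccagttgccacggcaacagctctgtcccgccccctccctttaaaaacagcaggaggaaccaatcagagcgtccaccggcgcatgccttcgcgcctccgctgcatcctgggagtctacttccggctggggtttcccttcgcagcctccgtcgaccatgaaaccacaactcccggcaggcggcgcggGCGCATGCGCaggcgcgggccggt
TFB1M: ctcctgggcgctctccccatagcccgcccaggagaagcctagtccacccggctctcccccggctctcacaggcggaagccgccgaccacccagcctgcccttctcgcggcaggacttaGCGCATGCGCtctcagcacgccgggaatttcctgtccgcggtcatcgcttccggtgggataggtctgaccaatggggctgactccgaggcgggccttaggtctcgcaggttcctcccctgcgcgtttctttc

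Of the 10 genes, 9 had an entry in the promoter table, with 10 entries in all because SLIRP had 2, and TWNK had none. Both strands were searched for 5 motifs in 35116 promoters. The NRF1 core was in 1.03% of them, at bases 24 to 15 before the start in POLRMT and 132 to 123 in TFB1M. The gamma-activated core, in 6.57% of promoters, was found in PNPT1 (bases 118 to 110 before the start) and SUPV3L1 (114 to 106). The paired GAAA with 1 base between, added after the PNPT1 sequence had been read, was in 2.69% of promoters, among them PNPT1 (65 to 57) and LRPPRC (192 to 184). The interferon-stimulated response element core, GAAANNGAAA, was in 3.02% of promoters and in 0 of the 9 genes. The core CCGGAAG, bound by ETS factors such as GABP, was in 8.52% of promoters and in POLRMT (93 to 87), SLIRP and TFB1M (85 to 79), left in lower case above. The NRF1 and gamma-activated cores read the same on both strands, and a match is a run of letters only.

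The libraries held 3.15 to 4.99 gigabases over annotated transcripts, and 13438 to 16554 genes reached a TPM of 1. Replicates of a group differed with the GC content of the genes: across genes, which are not independent, the Spearman correlation of GC content with replicate 1 minus replicate 2 ran from -0.79 in RES depc to -0.44 in 2-CM poly I:C in 5 groups and was 0.78 in RES poly I:C. The changes tested below are therefore given without and with a correction for GC content, which removed, in each library and each of 20 classes of GC content, the median deviation from the genes' means. The 4 interferon-induced genes used to check the labels, ISG15, IFIT1, OAS1 and MX1, were called higher with poly I:C under each treatment, and their summed TPM was 92.3 to 194 in the depc libraries and 1278 to 1945 with poly I:C. Of 9 acinar markers, AQP5, MUC7 and STATH were at 0 in all 12 libraries and the 3 AMY1 genes at or near 0. SLC12A2 (1.296 to 8.11 TPM), BHLHA15 (0.507 to 2.69) and CHRM3 (at most 0.0916) were above 0 in every library, and the list summed to 4.02 to 9.01 TPM with depc and 1.90 to 8.86 with poly I:C. Of 6 epithelial markers KRT5 and KRT14 were at 0, and the sum, nearly all KRT8 and KRT18, was 1682 to 3530 TPM with depc and 1098 to 1733 with poly I:C. The 4 fibroblast markers, of which COL1A2 was at or near 0, summed to 82.4 to 149.8 TPM with depc and 38.8 to 108 with poly I:C, although COL3A1 was at 44.6 and 39.7 TPM with 2-CM and depc and at 60.1 and 54.6 with 2-CM and poly I:C. Leukocyte PTPRC and CD3E were at 0. The part of these shifts in the results below was not tested.

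SLIRP was the most abundant of the 10 mRNAs in every group, and TFB2M the least. In DMSO depc the mean levels were 129 ± 24.8 TPM for SLIRP (SD, n = 2, as for every group mean here), 38.2 ± 4.7 for POLRMT, 33.6 ± 10.1 for LRPPRC and 14.2 ± 0.168 for TWNK. POLRMT and LRPPRC overlapped between replicates. SUPV3L1, TFB1M, PNPT1, TFAM and TEFM followed between 8.28 and 10.8 TPM, and neighbours among these 5 overlapped between replicates. TFB2M was lowest at 4.19 ± 1.11 TPM. With depc, PNPT1 ranked 7 of the 10 by mean level under DMSO, 8 under 2-CM and 9 under RES. With poly I:C it ranked 3, 2 and 3, and in each case it overlapped the next gene below. POLRMT ranked 2 in all 3 depc groups and 4, 8 and 6 with poly I:C. These ranks use TPM as deposited. The GC correction acts on deviations from each gene's own mean, so any bias between genes stays in the corrected ranks too. By the mean GC-corrected level, PNPT1 ranked 7, 8 and 9 with depc and 4, 2 and 5 with poly I:C, and POLRMT 3, 2 and 3 with depc and 3, 4 and 4 with poly I:C, so with the correction POLRMT stayed within 2 places of its depc rank under each treatment.

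**Figure D1:**
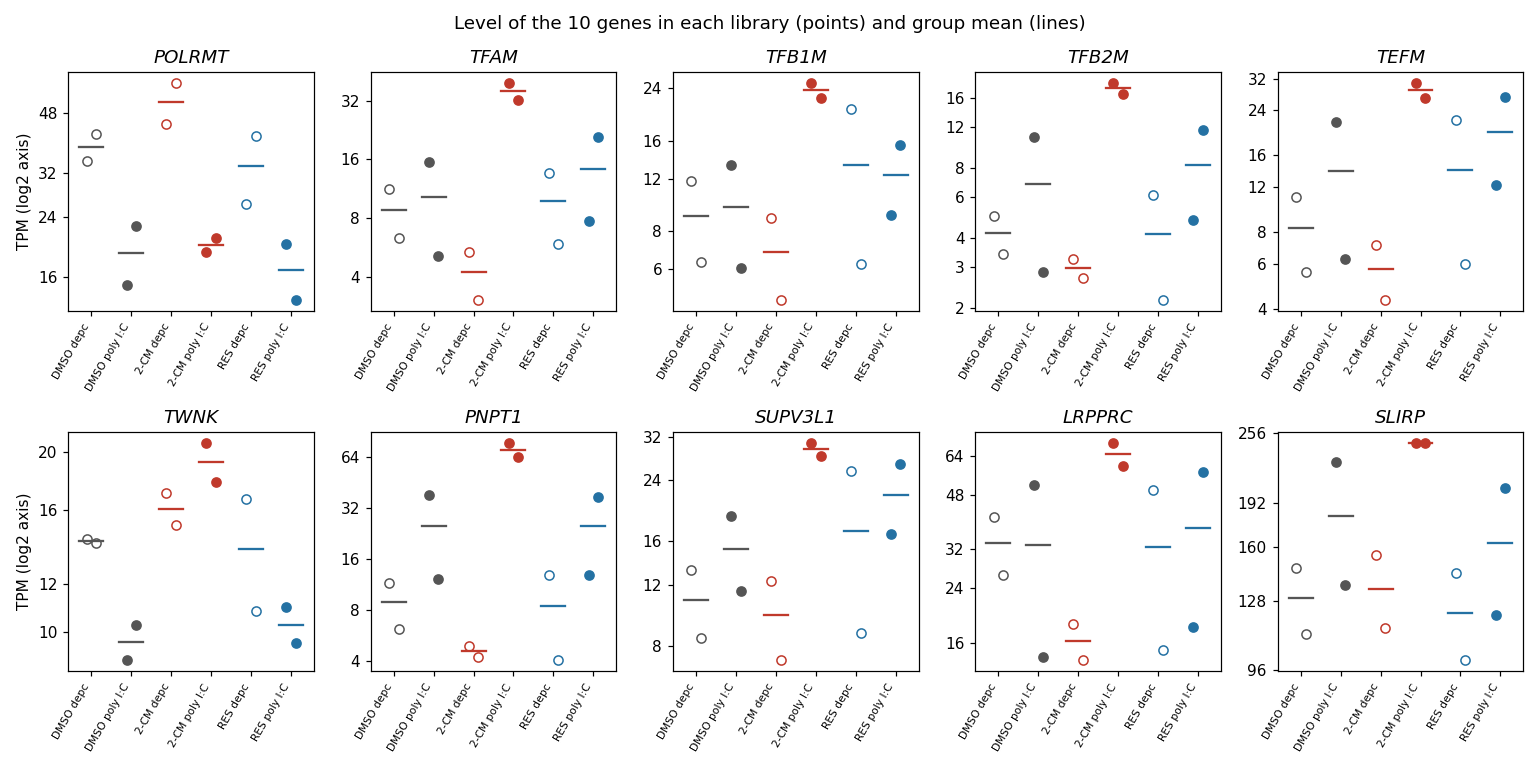
Level of each gene in each library, in TPM on a log2 axis with a scale of its own per gene, for the 6 groups on the horizontal axis. Points are libraries, open for depc and filled for poly I:C, and lines are group means. PNPT1 with 2-CM and poly I:C sits at 64.2 and 77.5 TPM, while POLRMT lies lower with poly I:C than with depc under every treatment.

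Poly I:C without a compound, under DMSO, moved none of the 10 past the threshold, a Benjamini-Hochberg adjusted p under 0.05 over all genes by limma, while 4.08% of all genes passed. By limma 1 of the 10 (POLRMT) had an unadjusted p under 0.05, as did 19.7% of all genes. With voom weights on estimated reads 0 passed the adjusted threshold, which 1.42% of all genes did. Under 2-CM, 7 of the 10 passed, 6 higher and 1 lower, where 49.3% of all genes passed, 37.5% higher and 11.8% lower. Under RES 0 passed with either tool, where 0.442% of all genes passed with limma and 0.332% with voom, and 1 (POLRMT) had an unadjusted p under 0.05, as did 14.0% of all genes. In the authors' deposited tables an adjusted p under 0.05 was reached by 0 of the 10 under DMSO (1.25% of genes with an adjusted p). Under 2-CM 9 reached it (46.4%), all but SLIRP, and under RES 0 (0.363%). Of those 9, POLRMT and TWNK were lower with poly I:C under 2-CM and the others higher. Without any one of the 4 libraries of 2-CM, limma called 0 of the 10 and 37 to 46 of all genes there. Such a fit leaves 1 group with a single library, assumed to vary like the other groups, and has less power. The 7 called genes kept their direction in every fit with a library left out: the log2 change of PNPT1 was 3.55 to 3.82, that of TFAM 2.52 to 3.18 and that of POLRMT -1.52 to -1.12. Under median-of-ratios scaling the median change of all genes under 2-CM went from 0.61 to 0.03 on the log2 scale, and the genes called went from 6440 higher and 2035 lower to 3484 and 4046. That scaling changed the split under DMSO from 137 higher and 564 lower to 98 and 29, and under RES from 34 and 42 to 37 and 2.

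The 2-CM response followed GC content across all genes, with a Spearman correlation of -0.81, against -0.38 under DMSO and -0.63 under RES. POLRMT had the most GC-rich leading transcript of the 10, at 66.1% GC, percentile 97.5 of the genes tested, and TFAM the poorest, at 36.0%, percentile 2.43. The other 8 lay between 39.7% (PNPT1) and 53.7% (TWNK). After the GC correction the genes called were PNPT1 and POLRMT under DMSO, where 17.2% of all genes passed, PNPT1, TFAM, TFB2M and POLRMT under 2-CM, where 28.9% passed, and PNPT1 alone under RES, where 3.64% passed. The same correction brought the median SD between replicates of PNPT1 over the 6 groups from 0.80 to 0.20 on the log2 scale, and that of POLRMT from 0.32 to 0.06.

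**Figure D2:**
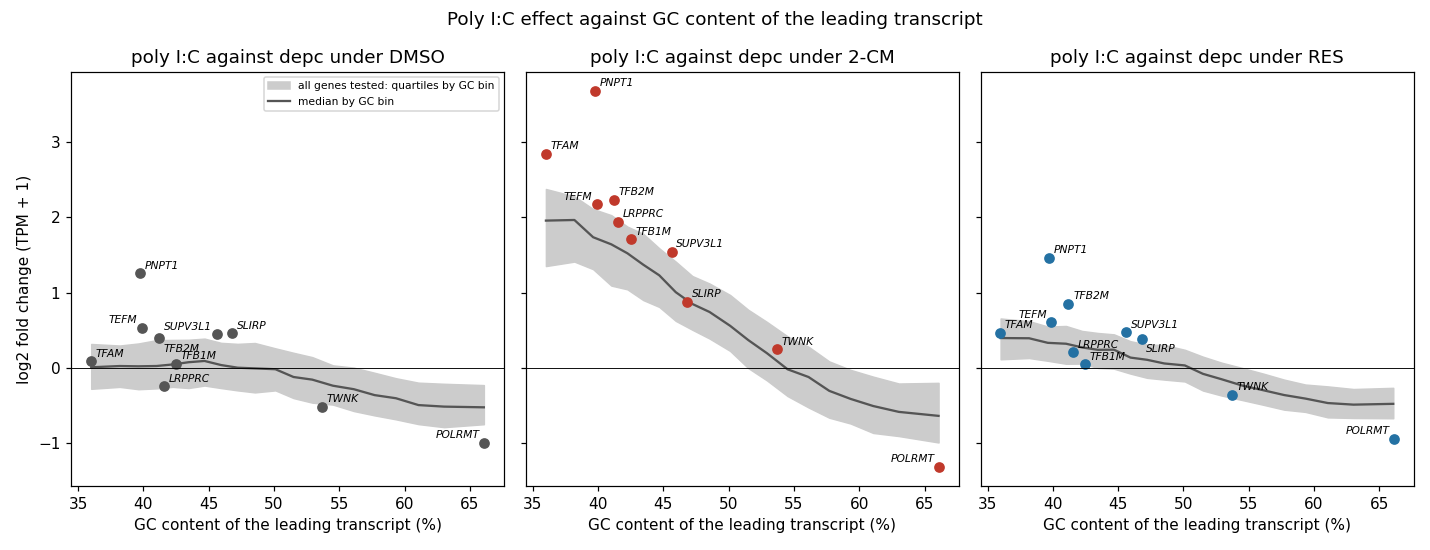
Poly I:C against depc on the log2(TPM + 1) scale (vertical axis) against the GC content of each gene's leading transcript in percent (horizontal axis), under DMSO, 2-CM and RES. Points are the 10 genes, the line is the median of all genes tested by class of GC content and the band their quartiles; PNPT1 lies above the band and POLRMT below it in all 3 panels.

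POLRMT (ENSG00000099821.14, chr19:617221-633537 on GRCh38, minus strand), the polymerase itself, fell with poly I:C under 2-CM. Under DMSO it stood at 34.8 and 41.5 TPM with depc and 15.2 and 22.5 TPM with poly I:C. Under 2-CM the values were 44.3 and 58.6 TPM against 18.9 and 20.8, and under RES 26.1 and 41.1 against 20.0 and 13.7. The 6 poly I:C libraries thus lay at 13.7 to 22.5 TPM and every depc library above them. The log2 change under 2-CM was -1.32 (SE 0.30, limma adjusted p = 0.0274). Under DMSO it was -0.999 (SE 0.30, adjusted p = 0.102) and under RES -0.94 (SE 0.30, adjusted p = 0.219), neither past the threshold.

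With the GC correction DMSO poly I:C replicate 2 (4.82 on the log2 scale) lay above RES depc replicate 1 (4.72). Within each treatment the groups stayed separate. The POLRMT change with the correction was smaller and its error smaller still. It was -0.48 under DMSO (SE 0.12, limma adjusted p = 0.0219) and -0.67 under 2-CM (adjusted p = 0.00637), both called, and -0.45 under RES (adjusted p = 0.0682), not called. The DMSO call was lost without DMSO depc replicate 1 or 2 or DMSO poly I:C replicate 1, where adjusted p reached 0.129. The 2-CM call was lost without 2-CM depc replicate 2 or 2-CM poly I:C replicate 1, where it reached 0.0518. In the authors' deposited table POLRMT had a log2 fold change of -2.29 under 2-CM. The 3 tested genes most like POLRMT over the 12 libraries were MAPK12, STK11 and ATAD3A (Pearson r 0.995, 0.994 and 0.994, of 10182 genes with a mean TPM of 5 or more). The genes compared share each library's depth and GC profile, and after the GC correction the values were 0.926 for MAPK12, 0.577 for STK11 and 0.961 for ATAD3A.

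TFAM (ENSG00000108064.11, chr10:58385345-58399220, plus strand), which packs mitochondrial DNA and helps start transcription, rose with poly I:C under 2-CM. It was at 5.4 and 3.05 TPM with 2-CM and depc, and at 39.5 and 32.1 TPM with 2-CM and poly I:C. The other 8 libraries ran from 5.11 to 20.9 TPM, so the 2-CM groups held the lowest and the highest value. Under DMSO the values were 11.3 and 6.31 TPM with depc against 15.6 and 5.11 with poly I:C, and under RES 13.6 and 5.94 against 7.79 and 20.9. These groups overlapped. The log2 change under 2-CM was 2.85 (SE 0.61, limma adjusted p = 0.027), against 0.09 under DMSO (adjusted p = 0.971) and 0.46 under RES (adjusted p = 0.785). After correction for GC content it was 0.88 (SE 0.17, adjusted p = 0.00928) under 2-CM, 0.06 under DMSO (adjusted p = 0.842) and 0.07 under RES (adjusted p = 0.856). The 2-CM call was lost without 2-CM depc replicate 2 or either 2-CM poly I:C replicate.

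Most TFAM signal came from 2 transcripts. The leading one, ENST00000487519.6 of 5025 bases, carried a mean of 66.6% of the gene's TPM, and ENST00000373895.7 of 973 bases carried 31.1%. The latter was listed at 0 in 2-CM depc replicate 2 and at 18.8 to 46.8% in the other libraries. ZC3H15, PRPF39 and CKAP2 were most like TFAM over the 12 libraries (Pearson r 0.992, 0.991 and 0.991), and with the GC correction r was 0.862, 0.897 and 0.898.

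TFB2M (ENSG00000162851.8, chr1:246540561-246566261, minus strand), the factor that melts the promoter with POLRMT, also rose under 2-CM. Its libraries were at 3.24 and 2.69 TPM with depc and 18.6 and 16.7 TPM with poly I:C. The corresponding values were 4.97 and 3.41 against 10.8 and 2.85 TPM under DMSO, and 6.14 and 2.16 against 4.79 and 11.6 TPM under RES. Only the 2-CM groups were separate. The log2 change was 2.23 under 2-CM (SE 0.59, limma adjusted p = 0.0283), 0.40 under DMSO (adjusted p = 0.809) and 0.85 under RES (adjusted p = 0.591). In the GC-corrected fit the 2-CM value was 0.57 (adjusted p = 0.0388), a call lost in 6 of the 12 fits with a library left out, those without any 2-CM library or either DMSO depc replicate. The corrected change was of like size under RES, 0.56 (adjusted p = 0.122), and 0.34 under DMSO (adjusted p = 0.213), neither called.

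TFB1M (ENSG00000029639.11, chr6:155256134-155314493, minus strand), a relative of TFB2M that methylates the small mitochondrial ribosomal RNA, had 8.91 and 4.73 TPM with 2-CM and depc and 25.04 and 22.2 TPM with 2-CM and poly I:C. Its log2 change there was 1.71 (SE 0.58, limma adjusted p = 0.0397), and the call was also lost without either DMSO depc replicate. Under DMSO it was 0.05 and under RES 0.05, and DMSO and RES groups overlapped. With the GC correction the 2-CM value was 0.19 (adjusted p = 0.502), not called (0.01 under DMSO and -0.19 under RES), and median-of-ratios scaling also ended the call (0.92, adjusted p = 0.0671). TFB1M shares bases with TIAM2 and CLDN20 on the other strand and with AL596202.1 on its own. No strand option was in the file headers, so reads of these overlaps may be shared.

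The elongation factor TEFM (ENSG00000172171.11, chr17:30897336-30906238, minus strand) was at 7.11 and 4.34 TPM with 2-CM and depc and at 30.8 and 26.8 TPM once poly I:C was added. Under DMSO its values were 11.0 and 5.61 against 21.6 and 6.3 TPM, and under RES 22.0 and 6.01 against 12.3 and 27.1 TPM, with overlap in both. TEFM changed by 2.18 on the log2 scale under 2-CM (SE 0.69, limma adjusted p = 0.0353), 0.53 under DMSO and 0.60 under RES, the last 2 not called. After correction for GC content the value was 0.43 (adjusted p = 0.171), not called, beside 0.52 under DMSO (adjusted p = 0.149) and 0.30 under RES (adjusted p = 0.511).

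TWNK (ENSG00000107815.10, chr10:100987367-100994403, plus strand), the helicase that unwinds mitochondrial DNA for replication, varied least of the 10, from 8.96 to 20.7 TPM. Under DMSO it was at 14.3 and 14.1 TPM with depc and lower, at 8.96 and 10.3, with poly I:C. Under 2-CM it was at 17.0 and 15.1 with depc and 20.7 and 17.8 with poly I:C, and under RES at 16.6 and 10.8 against 11.0 and 9.57 TPM. None of the poly I:C changes passed: -0.52 under DMSO (SE 0.24, limma adjusted p = 0.266), 0.24 under 2-CM (adjusted p = 0.39) and -0.36 under RES (adjusted p = 0.558). Corrected for GC content they were -0.27, 0.25 and -0.13 (adjusted p = 0.292, 0.255 and 0.705). Median-of-ratios scaling turned the 2-CM value to -0.56. The authors' deposited table gave -0.71 with an adjusted p of 0.000293, a fall past the threshold where limma gave 0.24. Between treatments, both 2-CM poly I:C libraries lay above both DMSO poly I:C libraries, a log2 difference of 0.93 (SE 0.24, adjusted p = 0.0955) and of 0.62 with the GC correction (adjusted p = 0.0533).

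TWNK signal was split over 3 long transcripts with mean shares of 46.4%, 34.8% and 11.1%. The last, ENST00000643860.1, was singled out after its values were seen: it carried at most 0.245% of TWNK TPM in the 4 DMSO libraries, 18.2% to 28.7% in the 4 with 2-CM, 21.2% and 14.4% in RES depc, 8.74% in RES poly I:C replicate 1 and 0% in replicate 2. These transcripts differ by few bases in length (3616 to 3722), and the split is the quantifier's estimate. TWNK also shares 149 bases of its span with MRPL43 on the other strand, which was at 158 to 276 TPM. MRPL43 ends at base 100987515, and these 3 transcripts start at 100987536 or later, so they share no base with it.

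PNPT1 (ENSG00000138035.15, chr2:55634061-55693863, minus strand), the mitochondrial exoribonuclease and a gene known to be induced by interferon, changed most. Under DMSO it was at 11.6 and 6.2 TPM with depc and 38.1 and 12.2 TPM with poly I:C. Under 2-CM the values were 4.91 and 4.25 TPM against 77.5 and 64.2, and under RES 12.8 and 4.04 against 12.9 and 37.1. In each treatment both poly I:C libraries lay above both depc libraries, narrowly under DMSO and RES. PNPT1 rose under 2-CM by 3.68 on the log2(TPM + 1) scale (SE 0.67, limma adjusted p = 0.0239), which is 12.8-fold in TPM + 1. Under DMSO the change was 1.25 (SE 0.67, adjusted p = 0.36) and under RES 1.46 (SE 0.67, adjusted p = 0.378), neither called. The authors' deposited table for DMSO gave a log2 fold change of 1.62 with an adjusted p of 0.052, and that for 2-CM gave 3.07.

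In the GC-corrected fit PNPT1 was called higher under all 3 treatments. The log2 change was 1.24 under DMSO (SE 0.20, limma adjusted p = 0.00403), 1.93 under 2-CM (adjusted p = 0.000614) and 1.15 under RES (adjusted p = 0.0169). Corrected levels were 3.57 and 3.30 against 4.90 and 4.46 on the log2(TPM + 1) scale under DMSO, 3.20 and 3.27 against 5.20 and 5.13 under 2-CM, and 3.30 and 3.01 against 4.06 and 4.56 under RES. The calls under DMSO and 2-CM were kept in 12 of 12 fits with a library left out, with changes of 1.01 to 1.46 and 1.89 to 1.97. The RES call was kept in 10 of 12 and lost without RES depc replicate 2 or RES poly I:C replicate 2, where adjusted p reached 0.0967. PHF11, DDX60L and DDX60 were most like PNPT1 over the 12 libraries (Pearson r 0.994, 0.993 and 0.992), and with the GC correction r was 0.981, 0.972 and 0.983.

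**Figure D3:**
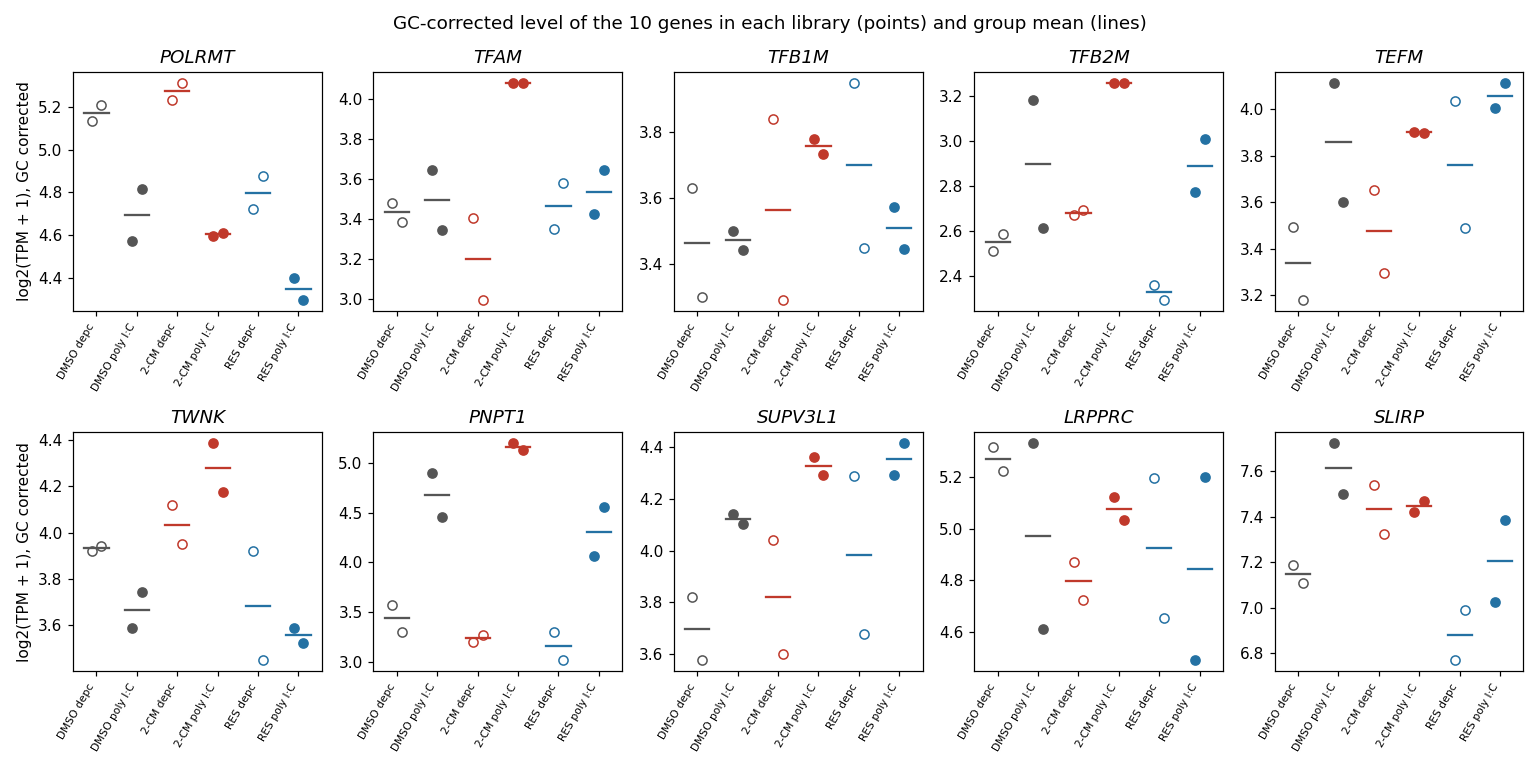
GC-corrected level of each gene in each library, log2(TPM + 1), with a scale of its own per gene, for the 6 groups on the horizontal axis. Points are libraries, open for depc and filled for poly I:C, and lines are group means; PNPT1 is higher with poly I:C under each treatment, from 4.06 to 5.20 against 3.01 to 3.57 with depc.

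SUPV3L1 (ENSG00000156502.14, chr10:69180234-69209099, plus strand), the helicase partner of PNPT1, rose under 2-CM from 12.3 and 7.25 TPM to 30.8 and 28.2 TPM. Under DMSO it was at 13.2 and 8.43 TPM against 18.9 and 11.5, and under RES at 25.5 and 8.69 against 16.8 and 26.8. The 2-CM groups were separate and the others overlapped. The log2 change under 2-CM was 1.54 (SE 0.49, limma adjusted p = 0.0357), against 0.44 under DMSO (adjusted p = 0.731) and 0.47 under RES (adjusted p = 0.732). With the GC correction it was 0.51 (adjusted p = 0.0893), and with median-of-ratios scaling 0.74 (adjusted p = 0.0784), neither called. The corrected changes under DMSO, 0.42 (adjusted p = 0.194), and RES, 0.37 (adjusted p = 0.359), were nearly as large.

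The ratio of PNPT1 to SUPV3L1 within a library does not depend on how libraries are scaled, but it does on their GC profile, since the genes differ in GC content (39.7% and 45.6%). It was 0.881 and 0.736 in DMSO depc against 2.02 and 1.07 with poly I:C, and 0.400 and 0.586 in 2-CM depc against 2.52 and 2.28. In RES it was 0.504 and 0.465 against 0.764 and 1.39. Within each treatment both poly I:C libraries had the higher ratio. After the GC correction the difference of the log2 levels, PNPT1 minus SUPV3L1, was -0.25 and -0.27 in DMSO depc against 0.76 and 0.36 with poly I:C, and -0.84 and -0.33 in 2-CM depc against 0.84 and 0.84. In RES it was -0.99 and -0.66 against -0.23 and 0.14. The order was the same as without the correction, and the gap under 2-CM was smaller.

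LRPPRC (ENSG00000138095.19, chr2:43886224-43995989, minus strand), a large RNA-binding protein of the mitochondrial matrix, was at 18.5 and 14.0 TPM with 2-CM and depc and at 70.4 and 59.6 TPM with 2-CM and poly I:C. The groups were separate, yet the log2 change of 1.94 (SE 0.73) missed the threshold (limma adjusted p = 0.0532). LRPPRC was called higher there with the replicate number as a block (adjusted p = 0.0496), with FPKM (0.0429), with a TPM minimum of 5 (0.0494), in a fit of only the groups compared (0.000706) and in 6 of 12 fits with a library left out, those without a DMSO poly I:C or a RES library. In the other 6, without a 2-CM or a DMSO depc library, it reached 0.201. LRPPRC was not called with voom, with median-of-ratios scaling, with no filter on low genes, or with 0.1 in place of 1 added to TPM. How many of all genes these alternatives called is given in the last section. Under DMSO the libraries were at 40.7 and 26.4 TPM against 51.6 and 14.4, and under RES at 49.8 and 15.2 against 18.0 and 56.7. Under DMSO and RES the replicates of LRPPRC lay further apart than the group means. After correction for GC content the LRPPRC changes were -0.30, 0.28 and -0.08 under DMSO, 2-CM and RES, and limma gave them an adjusted p of 0.513, 0.458 and 0.907 in that order.

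Its partner SLIRP (ENSG00000119705.9, chr14:77708071-77761104, plus strand), a small RNA-binding protein, spanned 100.005 to 246 TPM. Both 2-CM poly I:C libraries stood at 246 TPM and 2-CM depc at 155 and 115. The other pairs were 147 and 112 against 228 and 136 under DMSO, and 144 and 100.005 against 121 and 204 under RES. The log2 change of 0.88 under 2-CM missed the threshold (SE 0.34, limma adjusted p = 0.0553) and was 0.01 with the GC correction (95% interval -0.33 to 0.35). Without the correction SLIRP was called in the fit of only the groups compared (adjusted p = 0.00632) and in 6 of 12 fits with a library left out, again those without a DMSO poly I:C or a RES library (lowest adjusted p = 0.0415). The corrected SLIRP change was 0.46 under DMSO (adjusted p = 0.0647) and 0.33 under RES (adjusted p = 0.273). The span of SLIRP overlaps SNW1 on the other strand, at 16.1 to 72.05 TPM.

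SLIRP mRNA exceeded that of LRPPRC in every library. The ratio was 3.60 and 4.23 in DMSO depc, 4.41 and 9.48 in DMSO poly I:C, 8.37 and 8.16 in 2-CM depc and 3.49 and 4.13 in 2-CM poly I:C. In RES it was 2.88 and 6.58 with depc and 6.70 and 3.60 with poly I:C. Under 2-CM both depc ratios exceeded both poly I:C ratios, under DMSO both were below them, and under RES they overlapped. After the GC correction SLIRP minus LRPPRC on the log2 scale was 2.67 and 2.60 in 2-CM depc against 2.30 and 2.44 with poly I:C, a smaller gap in the same order. It was 1.87 and 1.88 against 2.39 and 2.89 under DMSO, where the groups stayed apart, and 1.57 and 2.34 against 2.54 and 2.19 under RES.

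**Figure D4:**
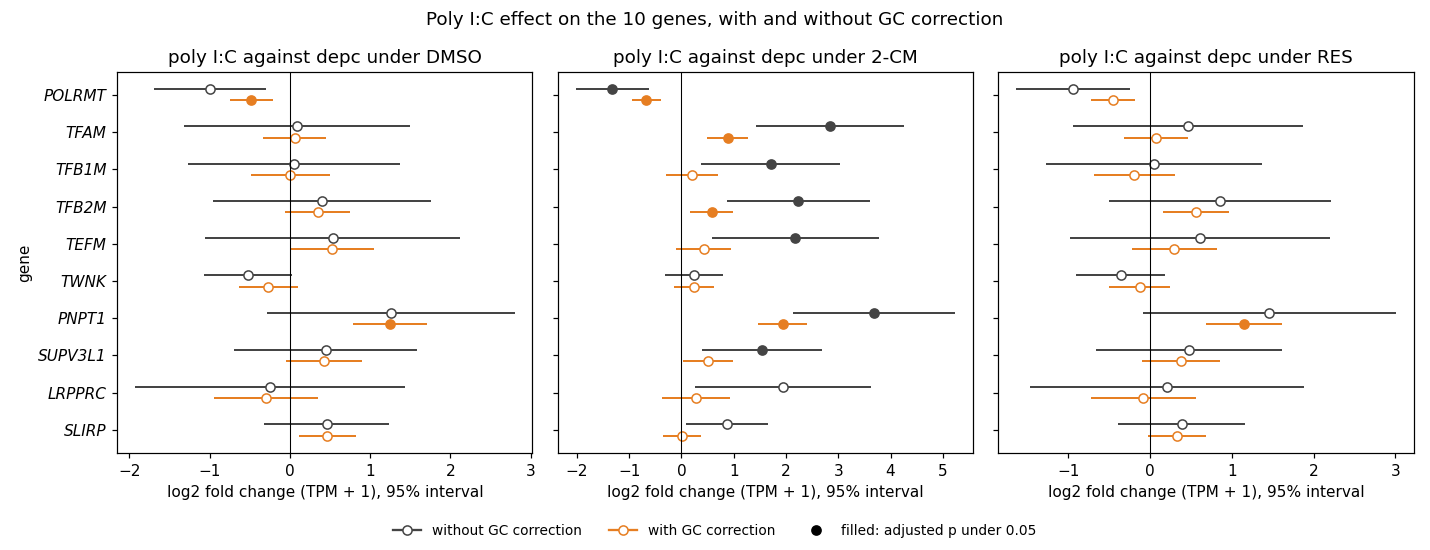
Change with poly I:C against depc on the log2(TPM + 1) scale (horizontal axis) for each gene (vertical axis), under DMSO, 2-CM and RES, each panel with its own range. Points are limma estimates with 95% intervals, grey without and orange with the GC correction, and filled where adjusted p was under 0.05; correction moved the 6 genes called higher under 2-CM towards 0 and narrowed the intervals.

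Whether the poly I:C response itself differed between treatments was tested directly. For 2-CM against DMSO 0 of the 10 passed, where 0.0116% of all genes did, and 3 had an unadjusted p under 0.05 (TFAM, PNPT1 and TWNK), as did 29.7% of all genes. The difference in log2 change was 2.76 for TFAM (95% interval 0.79 to 4.73, limma adjusted p = 0.161), 2.43 for PNPT1 (0.26 to 4.60, adjusted p = 0.161) and 0.76 for TWNK (0.01 to 1.52, adjusted p = 0.168). In the GC-corrected fit the TFAM difference was 0.82 (adjusted p = 0.0995), that of PNPT1 0.69 (adjusted p = 0.17) and that of TWNK 0.51 (adjusted p = 0.193), and again 0 passed, where 0.0175% of all genes did. The intervals were too wide to call the responses alike. For RES against DMSO 0 of the 10 passed, where 0% of all genes did, and 0 had an unadjusted p under 0.05, as 1.70% of all genes had. The PNPT1 difference there was 0.21 (95% interval -1.96 to 2.37) and -0.09 with the correction (-0.73 to 0.55). Both tests and the 3 poly I:C effects share control libraries.

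Between treatments given the same transfection, 0 of the 10 were called by limma in any of 4 comparisons, with or without voom weights. With depc, 2-CM against DMSO called 0.0349% of all genes and RES against DMSO 1.03%, and 0 of the 10 had an unadjusted p under 0.05 in either, as 4.84% and 14.7% of all genes had. With poly I:C, 2-CM against DMSO called 0.105% of all genes and RES against DMSO 0.157%, and the members with an unadjusted p under 0.05 were 4 (TFAM, TFB2M, PNPT1 and TWNK) and 0, against 34.2% and 13.4% of all genes. For POLRMT, 2-CM differed from DMSO by 0.41 with depc (95% interval -0.27 to 1.10) and 0.09 with poly I:C (-0.59 to 0.78). RES differed from DMSO by -0.21 (-0.89 to 0.48) and -0.15 (-0.83 to 0.53). For PNPT1 the 2-CM differences were -0.78 with depc (-2.31 to 0.76) and 1.65 with poly I:C (0.12 to 3.19, adjusted p = 0.134), and those of RES were -0.19 (-1.72 to 1.34) and 0.01 (-1.52 to 1.55). With the GC correction 0 of the 10 passed in each, where 0.128% (2-CM) and 13% (RES) of all genes did with depc and 6.06% (2-CM) and 7.9% (RES) with poly I:C, and POLRMT was lower with RES than DMSO by -0.38 (adjusted p = 0.0633) with depc and -0.35 (adjusted p = 0.1) with poly I:C.

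Counting only whether the TPM, as deposited, of a pair of groups overlapped, poly I:C libraries were all higher for 1 of the 10 under DMSO (11.5% of all genes), 9 under 2-CM (62.6%) and 1 under RES (6.05%). They were all lower for 2, POLRMT and TWNK, under DMSO (33.4%), and for POLRMT alone under 2-CM (23.9%) and RES (24.1%). The gene higher under DMSO and RES was PNPT1. With GC-corrected levels 5 were higher and 2 lower under DMSO (29.6% and 28.8% of all genes), 7 and 1 under 2-CM (37.6% and 37.9%) and 4 and 1 under RES (22.1% and 21.1%). PNPT1, TFB2M and SUPV3L1 were among the higher genes under each treatment, and the lower ones were the same as before. Between treatments the overlap was counted on TPM as deposited. With poly I:C, 9 of the 10, all but POLRMT, were higher in both 2-CM libraries than in both DMSO libraries, as were 70.4% of all genes. With depc TFAM, TFB2M, PNPT1 and LRPPRC were lower with 2-CM than with DMSO (33.3% of all genes) and POLRMT and TWNK higher (22.8%). None of the 10 was lower in the 2-CM poly I:C libraries (6% of all genes). RES and DMSO overlapped for all 10 with depc, where 25.7% of all genes were higher and 8.47% lower with RES, and with poly I:C, where 28.3% were higher and 7.04% lower.

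Read coverage along the leading transcript differed between the genes. Mean coverage of the third at the 5′ end, divided by that of the third at the 3′ end, was 2.80 to 4.35 for PNPT1, 2.73 to 4.60 for LRPPRC and 2.93 to 4.24 for TFB1M. It was 0.692 to 0.880 for POLRMT, 0.614 to 0.894 for SUPV3L1 and 0.580 to 0.889 for SLIRP. For PNPT1 the depc and poly I:C values were 3.50 and 3.002 against 4.0 and 3.66 under DMSO, 3.71 and 4.0 against 4.13 and 4.35 under 2-CM, and 2.80 and 3.18 against 3.18 and 3.92 under RES. POLRMT, PNPT1, SUPV3L1 and LRPPRC each had a leading transcript with 91.9% to 97.0% of their TPM, and TFB2M had only 1 transcript.

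Other nuclear genes of mitochondrial expression were taken from 3 lists, all of whose genes were tested. Of 23 genes of mitochondrial RNA processing and maturation, 0 were called higher and 1 lower under DMSO, where 4.08% of all genes passed, 14 and 5 under 2-CM, where 37.5% of all genes were called higher and 11.8% lower, and 0 under RES, where 0.442% passed. ELAC2, which trims the 3′ ends of mitochondrial transfer RNAs, was the lower gene under DMSO, at 64.2 and 64.4 TPM with depc and 38.6 and 41.0 with poly I:C (log2 change -0.68, limma adjusted p = 0.0415). Under 2-CM the called gene of largest rise was TRMT10C, a subunit of the mitochondrial RNase P, at 2.72 (adjusted p = 0.0277), and that of largest fall TBRG4, a FASTK-family protein, at -1.20 (adjusted p = 0.026). Both were also called with the GC correction, at 0.97 (adjusted p = 0.0161) and -0.78 (adjusted p = 0.00739). The median change of these 23 was 0.14, 1.76 and 0.35 under DMSO, 2-CM and RES. It was -0.14, 0.61 and -0.03 over all genes, and 0.24, 1.82 and 0.43 for the 10. With the GC correction the medians were much smaller under 2-CM. They were then 0.16, 0.26 and 0.14 for the 23, and 0.20, 0.35 and 0.18 for the 10. Over all genes they were 0.01, -0.004 and 0.02. After correction for GC content 1 of the 23 was higher and 1 lower under DMSO, where 17.2% of all genes passed in either direction. Under 2-CM 6 were higher and 3 lower, where 28.9% passed, and under RES 0 were called, where 3.64% passed. MRM2, a methyltransferase of the large mitochondrial ribosomal RNA, was then the higher gene under DMSO, at 2.98 and 1.18 TPM against 11.2 and 5.03 (log2 change 1.55, adjusted p = 0.0183).

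Among 12 genes of mitochondrial DNA replication and the nucleoid, 0 were called under DMSO and RES, where 4.08% and 0.442% of all genes passed. Under 2-CM 6 were called higher and 1 lower, against the same shares of all genes, 37.5% and 11.8%. DNA2, a nuclease and helicase, changed by 2.36 (limma adjusted p = 0.0303), and ATAD3A, a membrane ATPase tied to nucleoids, by -1.07 (adjusted p = 0.0279). With the GC correction DNA2 changed by 0.43 (adjusted p = 0.0846), not called, and ATAD3A by -0.42 (adjusted p = 0.0203). After the GC correction the counts were 0 higher and 2 lower under DMSO (17.2% of all genes passed) and 2 of each under 2-CM (28.9%). Under RES 0 were called (3.64%). LIG3, the mitochondrial DNA ligase, was lower under DMSO (-0.55, limma adjusted p = 0.0278) and 2-CM (-0.88, adjusted p = 0.00509). Of 7 nuclear regulators of mitochondrial genes, PPRC1, a coactivator of the PGC-1 family, fell under DMSO from 30.2 and 29.2 TPM to 17.3 and 16.1 (log2 change -0.79, adjusted p = 0.0392), the 1 of 7 called there, where 4.08% of all genes passed. Its fall under DMSO was also called with the GC correction (-0.49, adjusted p = 0.0092). Under 2-CM PPRC1 was at 36.1 and 37.8 TPM against 34.9 and 35.8. GABPA, a subunit of GABP, was 1 of 2 regulators among the 7 called higher under 2-CM (2.50, adjusted p = 0.031), against 37.5% of all genes. With the GC correction GABPA changed by 0.53 (adjusted p = 0.0803) and 0 of 7 were called there, against 28.9% of all genes.

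The 13 mitochondrially encoded mRNAs, products of mitochondrial transcription, summed to 168907 to 181567 TPM in the 4 libraries with 2-CM and 223412 to 297252 TPM in the other 8. Of these 13, limma called 3 lower with 2-CM than with DMSO in depc, where 0.0349% of all genes passed, and 4 lower with poly I:C, where 0.105% did. In the GC-corrected fit 0 and 3 were called lower, against 0.128% and 6.06% of all genes. Their response to poly I:C under 2-CM changed sign with the correction. Without it the median log2 change was 0.19, and 2 of the 13, MT-ND2 (0.59, limma adjusted p = 0.0209) and MT-CYB (0.55, adjusted p = 0.0247), were called higher, against 37.5% of all genes. With it the median was -1.13, 0 of the 13 lay above 0, and only MT-ATP8 was called, lower (-1.56, adjusted p = 0.0477), against 28.9% of all genes called in either direction. Those 3 are named after their values were seen. Under DMSO and RES limma called 0 of the 13 in either fit. Of all genes 4.08% and 0.442% passed without the correction, and 17.2% and 3.64% with it. At an unadjusted p under 0.05 there were 5 and 6 of the 13 without the correction (19.7% and 14.0% of all genes). With it there were 0 and 0 (31.7% and 19.7%). The medians of the 13 were 0.08 and 0.26 without the correction and -0.01 and 0.11 with it.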

How the data were processed

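Polyadenylated RNA was sequenced from 12 libraries of NS-SV-AC cells, 2 per group, with paired reads of 101 bases. Groups were read from the sample titles. Per the submitters' processing notes the authors used bcl2fastq 2.20, HISAT2 2.1.0, StringTie and DESeq2 with hg38, in roles the sources used here do not give. Per the file headers, StringTie 2.0.4 estimated annotated GENCODE 32 transcripts, with no strand option, and wrote coverage, FPKM and TPM. The authors' deposited comparisons of the poly I:C and depc groups for each compound held a mean normalised signal, p-values raw and adjusted, a test score and a log2 fold change with its error. They were used for the values credited to them.

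Transcript TPM was summed to genes (Python 3.11.15), and reads were estimated from coverage times length over read length (31.2 to 49.4 M per library). In R 4.3.3, limma 3.58.1 (limma-trend) fitted 6 group means to log2(TPM + 1) for genes with at least 1 TPM in 2 or more libraries. This scale understates the change of low genes. Adjusted p-values are Benjamini-Hochberg within each of 9 contrasts, over all genes. The fit was tested on simulated data with independent normal spread and no shifts linked to GC content. That test therefore does not bear on such shifts here. GC content is that of a gene's leading transcript. Genes most alike were the 3 with the highest Pearson r of log2(TPM + 1), for PNPT1, TFAM and POLRMT. Members, lists and tests were chosen with earlier results of these data known. Of 49338 genes shared with GENCODE 44 by identifier and version, 49337 had the same position. Promoters are RefSeq, GRCh38.p14. From each list the text could name, per contrast, the called gene of largest change in each direction, and names some of these.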

Additional observations from a re-analysis of the deposited data

How the results depend on the processing

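Under 2-CM 7 of the 10 genes were called. The count was 0 with no filter on low genes, where 649 of all genes were called, and 4 with the GC correction. Fits without a 2-CM library are described above. Under DMSO, with 0 called, the count was 2 with the GC correction. Under RES, with 0 called, the count was 1. The GC correction called 28.9% of all genes under 2-CM, 17.2% under DMSO and 3.64% under RES. FPKM, a TPM minimum of 5, median-of-ratios scaling, a pseudocount of 0.1, voom and a fit of only the groups compared gave 8, 8, 5, 7, 7 and 9 under 2-CM, where 52.7%, 59.1%, 43.8%, 45.7%, 49.4% and 68.96% of all genes were called; leaving out a library of DMSO or RES gave 6 to 9, where 38.03% to 59.99% were. Among the 10 genes no change past the threshold reversed its direction in any alternative. With the replicate block alone 8 were called under 2-CM, LRPPRC being the addition. Replicate numbers were not treated as pairing samples, since not every correlation was positive. Replicate differences correlated at 0.15 to 0.76 between 5 groups, but at -0.80 to -0.31 with RES poly I:C. The block coded the replicate number alike in every group, although RES poly I:C ran the other way. Whether the numbers of that group are reversed was not tested. Over all genes 701, 8475 and 76 were called under DMSO, 2-CM and RES; with no filter 832, 649 and 178; with the GC correction 2950, 4960 and 626; with the block 346, 8895 and 39; with FPKM 136, 7958 and 36; with voom 244, 8497 and 57; with only the groups compared 6, 11850 and 0. In these totals all fits but those with no filter and with FPKM tested the same 17185 genes. The planned tests held no GC correction. The GC correction with the block, whose counts are not given here, was chosen after seeing the data. So were the correction with each library left out and the corrected ranks and overlap counts. Libraries held 31.2 to 49.4 M estimated reads, and what depth limits was not tested.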
